A study of Mus musculus with 20 samples.

Results

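The photoreceptor layer of the mouse retina was set against its ganglion cell layer, the input and the output end of the same tissue, on 8 of the 20 arrays of the series. The arrays were chosen by their titles: 4 of the outer nuclear layer with outer and inner segments (ONL+OS/IS) and 4 of the ganglion cell layer (GCL). In each layer 2 arrays came from light-adapted and 2 from dark-adapted animals, and both adaptation states were given equal weight. All animals were adult C57BL/6 mice of 7 to 8 weeks. They had either been light adapted for 6 h under 450 lux or dark adapted for 3 h at no more than 0.4 lux, and no group carried a transgene or a drug according to the labels. Each layer was isolated with laser capture microdissection, in which chosen areas are lifted from a tissue section, and their total RNA was amplified in a 2-cycle labelling before it was hybridised. Which animals an array stands for is not given in the labels, so the p-values measure the spread between these samples, which may be technical. The other 12 arrays hold the inner nuclear layer (INL), the inner plexiform layer (IPL) and the whole retina, 4 each, and were used for the error estimate and as points of reference.

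Rods and cones detect light in a stack of membrane discs, the outer segment: a photon activates an opsin, the opsin activates the G protein transducin, transducin activates a phosphodiesterase, and the fall in cyclic GMP closes a cation channel. Their synapse onto bipolar and horizontal cells carries a ribbon and releases glutamate in a graded way. Ganglion cells are spiking neurons whose axons form the optic nerve. In the mouse their layer also holds displaced amacrine cells, astrocytes, blood vessels and the end feet of Müller glia.

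The unit throughout is the deposited GCRMA intensity. Differences are photoreceptor layer minus ganglion cell layer on log2 of that intensity, with values under 8 raised to 8, and are given with the standard error of the fit (4 arrays against 4). A gene was called when its Benjamini-Hochberg adjusted p in limma over 15057 genes was under 0.05. Lists of values on 4 arrays follow the order light replicate 1, light replicate 2, dark replicate 1 and dark replicate 2. Since these are bulk samples, fewer cells of a type and less RNA per cell cannot be told apart.

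The arrays fitted their labels by defining markers, with a difference in rod signal between the ganglion layer arrays. Over the 8 arrays the median intensity was 40.1 to 40.6, and 11.3% to 12.3% of values lay under the floor of 8. The mean log2 level of the 19 measured rod phototransduction genes was 9.18 to 9.31 on the photoreceptor arrays. It was 6.33, 7.66, 6.76 and 6.16 on the ganglion layer arrays, so that light replicate 2 carried the most rod signal of the 4. The effect of that array is given beside some of the results it touches. Without ganglion light replicate 2, the genes called higher were 15 of outer segment structure, 11 photoreceptor transcription factors, 12 of the ribbon synapse and 35 of inherited degeneration. These counts were the same as with it. Of the 688 genes that were higher in the photoreceptor layer, 427 had their highest ganglion layer value on the same array. Of the 466 lower genes, 208 also had their highest ganglion layer value there, and 248 had their lowest on dark replicate 1. A set of 30 probe sets for Y-linked genes had a median intensity of 192.25 to 306.2 on photoreceptor light replicate 1 and both light-adapted ganglion layer arrays, and of 10.95 to 19.9 on the other 5, which include all 4 dark-adapted arrays. On those 3 arrays Xist, which is expressed from the inactive X chromosome, read 23.2, 26.9 and 240, and the Y-linked gene Eif2s3y read 19.3, 9.7 and 7.8, so that on ganglion light replicate 2 these genes did not go with the probe set median. Xist read 115.1 to 263.8 on the other 5. The part of this signal in any result was not tested. The dark-adapted differences given below are means of arrays without it, but their errors come from the fit of all 20 arrays.

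The photoreceptor layer differed from the ganglion cell layer in 1154 genes, 7.66% of those tested. Of these, 688 (4.57%) were higher and 466 (3.09%) lower in the photoreceptor layer. The median difference was 1.07 among the higher and -0.90 among the lower genes, against -0.04 over all genes. Differences of at least 2, a 4-fold change, were found in 78 higher and 25 lower genes, and differences of at least 3 in 15 and 6. The 4 photoreceptor arrays lay clear of the 4 ganglion layer arrays for 636 of the 688 and for 446 of the 466 genes. Over all genes such a separation was seen in 14.6%, with the photoreceptor arrays above in 7.05% and below in 7.54%. The largest positive difference was that of the rod channel subunit Cnga1 (4.92 ± 0.61) and the largest negative one that of the cell surface glycoprotein Thy1 (-6.07 ± 0.15). The call count ranged from 715 to 1121 when each array was left out in turn. It was lowest without photoreceptor light replicate 2 (715) and photoreceptor dark replicate 2 (765).

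**Figure D1:**
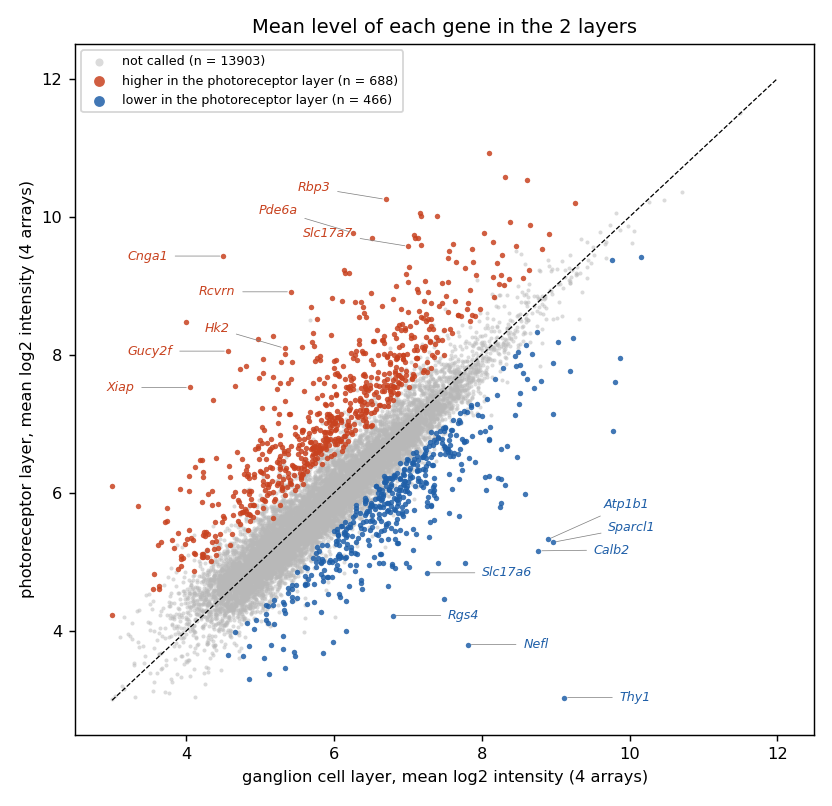
Mean log2 intensity of each of the 15057 genes in the ganglion cell layer (x axis) and the photoreceptor layer (y axis), 4 arrays each, with the line of equal level dashed. The 688 genes called higher lie above the line, with Cnga1 farthest out, and the 466 called lower lie below it, with Thy1 at the bottom.

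All 19 measured genes of the rod phototransduction cascade were higher in the photoreceptor layer, with a median difference of 2.59. Rhodopsin and Guca1b were not analysed here. Cnga1, which forms the rod cyclic nucleotide-gated channel with Cngb1, read 637.7, 701.3, 735.4 and 688.6 on the photoreceptor arrays and 12.2, 188.2, 14.5 and 6.1 on the ganglion layer arrays. Only ganglion light replicate 2 was well above the floor, and the difference was 4.92 ± 0.61 (adjusted p = 4.7e-05). Its partner Cngb1 was higher by much less, 0.71 ± 0.17 (adjusted p = 0.011), at 733.5, 776, 767.3 and 693 against 407.3, 425.9, 463.3 and 520.1. The other 3 probe sets of Cngb1 gave differences of 0.93 to 1.89. Without photoreceptor light replicate 2 or photoreceptor dark replicate 1, Cngb1 was not called. The sodium-calcium exchanger of the rod, Slc24a1, read 759.8, 853.2, 902.7 and 811.6 against 129.3, 198.5, 132.1 and 116 (2.56 ± 0.17, adjusted p = 9.9e-08).

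The enzymes that make and break down cyclic GMP showed the layer boundary on every array. Pde6a, the alpha subunit of the rod phosphodiesterase, read 874.8, 902.9, 892.1 and 816.7 against 39.6, 196, 124.1 and 35.9, a difference of 3.51 ± 0.42 (adjusted p = 3.1e-05). The beta subunit Pde6b differed by 3.17 ± 0.32 and the inhibitory gamma subunit Pde6g by 2.62 ± 0.30. Of the 2 photoreceptor guanylate cyclases, Gucy2f was at 216.8, 292, 248.2 and 317.4 against 12.6, 44.1, 30.4 and 18.7 (3.49 ± 0.34), whereas Gucy2e was at 205.9, 208.9, 216.3 and 203.7 against 96, 90.4, 78.3 and 74.6 (1.31 ± 0.14). Guca1a, the calcium sensor that activates these cyclases, read 367.1, 348.4, 354.3 and 203.1 against 30.3, 61.5, 34.8 and 26.1 (3.10 ± 0.24, adjusted p = 4.0e-07). No photoreceptor value of these 6 genes reached down to a ganglion layer value.

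Rod transducin was high in the photoreceptor layer in all 3 subunits. The alpha subunit Gnat1 read 1757.5, 2062.7, 1870.4 and 2053.3 against 153.3, 843.3, 321.9 and 137.5, a difference of 2.81 ± 0.39 (adjusted p = 0.00014). The gamma subunit Gngt1 differed by 2.06 ± 0.26 and the beta subunit Gnb1, which many cells express, by 1.92 ± 0.30. Among the genes that end the light response, recoverin (Rcvrn), a calcium sensor that restrains rhodopsin kinase, read 427.9, 385.1, 627.3 and 521.5 against 33.7, 81, 33.4 and 36.8 (3.49 ± 0.28, adjusted p = 5.7e-07). The kinase Grk1 itself differed by 2.01 ± 0.27, arrestin Sag by 2.59 ± 0.33, and phosducin Pdc, which binds transducin beta and gamma subunits, by 2.89 ± 0.40. The complex that speeds GTP hydrolysis by transducin was also higher, with Rgs9 at 1.99 ± 0.24, its partner Gnb5 at 1.77 ± 0.23 and its membrane anchor Rgs9bp at 0.84 ± 0.18. Without ganglion light replicate 2 all 19 genes were still called.

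**Figure D2:**
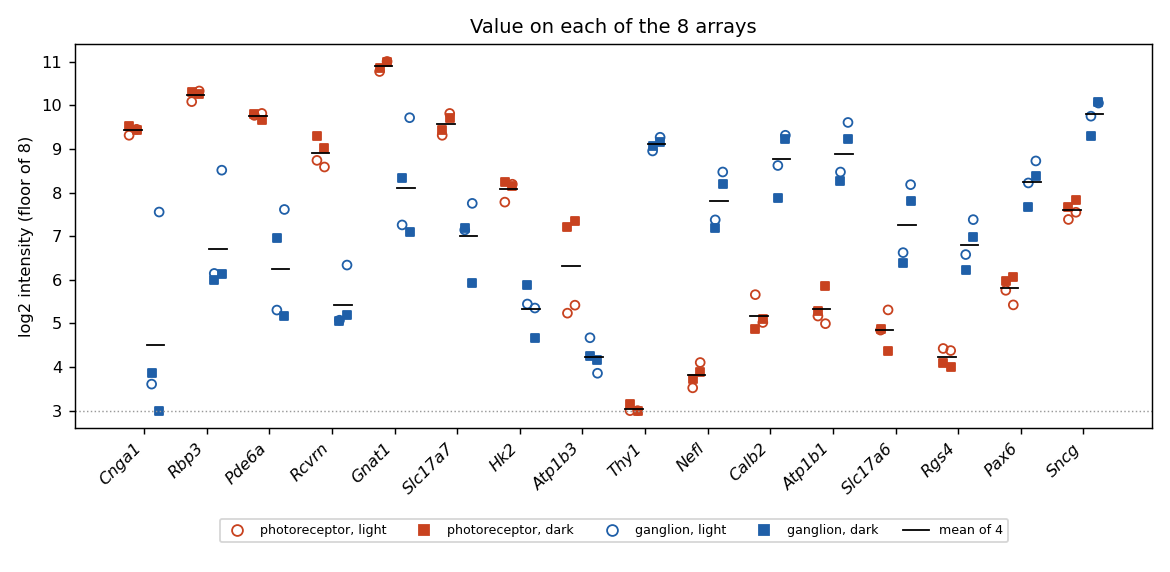
Log2 intensity of 16 genes on each of the 8 arrays (circles light adapted, squares dark adapted; red photoreceptor layer, blue ganglion cell layer; bars mark the mean of 4, the dotted line the floor). For the rod genes Cnga1, Rbp3 and Gnat1 the highest blue point is ganglion light replicate 2, at 188.2, 366.1 and 843.3 in intensity, and Thy1 sits at the floor on 3 of the 4 photoreceptor arrays.

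Cone genes were higher in the photoreceptor layer too: 8 of 11 were called, none lower, with a median difference of 1.32. The cone phosphodiesterase Pde6c read 262.9, 327.9, 296 and 319.2 against 27.6, 47, 31.6 and 23.6 (3.26 ± 0.22, adjusted p = 1.7e-07). Cone arrestin Arr3 differed by 2.90 ± 0.29 and the cone transducin alpha subunit Gnat2 by 1.77 ± 0.13. The medium-wavelength opsin Opn1mw read 165.7, 190.5, 292.8 and 343.5 against 23.5, 41.1, 49.5 and 48.3 (2.61 ± 0.24), with both dark photoreceptor values above both light ones. Cngb3, a cone channel subunit, differed by 1.32 ± 0.29, the cone phosphodiesterase gamma subunit Pde6h by 0.97 ± 0.21 and the cone transducin beta subunit Gnb3 by 0.80 ± 0.21. The other genes of the list were not called: the cone gamma subunit Gngt2 (0.49 ± 0.18), the channel subunit Cnga3 (0.16 ± 0.18) and the exchanger Slc24a2 (-0.45 ± 0.23). The calls of Gnb3 and Cngb3 depended on the arrays used. Gnb3 was lost without either light-adapted photoreceptor array, photoreceptor dark replicate 1, ganglion light replicate 2 or ganglion dark replicate 2, and Cngb3 without photoreceptor dark replicate 2.

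The short-wavelength opsin Opn1sw stood apart from every other cone gene. It read 628 and 556.7 on the light-adapted photoreceptor arrays and 1.4 and 1.5 on the dark-adapted ones, and lay between 1 and 6 on the 4 ganglion layer arrays. All 4 ganglion layer values and both dark photoreceptor values were under the floor of 8. The layer difference of 6.21 in light is therefore a lower estimate, the 0.00 in dark was set by the floor, and the mean of 3.10 ± 0.18 describes neither state. The whole retina showed the same pattern, at 594.1 and 600.8 in light and 4.5 and 2.9 in dark.

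The outer segment and the matrix around it were described by 18 measured genes, 15 of which were higher and none lower (median 2.40). Rbp3, the retinoid carrier of the matrix between photoreceptors and pigment epithelium, read 1088.7, 1289.6, 1271.6 and 1230.1 against 70.9, 366.1, 64.2 and 70.8 (3.55 ± 0.46, adjusted p = 7.8e-05). The disc rim proteins Prph2 and Rom1 differed by 2.83 ± 0.25 and 2.98 ± 0.21, the microtubule protein of the axoneme Rp1 by 3.09 ± 0.37, and the disc morphogenesis genes Prom1 and Cdhr1 by 2.48 ± 0.27 and 2.32 ± 0.20. The matrix proteoglycans Impg1 and Impg2 were higher by 2.70 ± 0.21 and 2.67 ± 0.23. Fscn2, Tub and Rd3 were not called. In the retinoid cycle 5 of 10 genes were higher, led by Rbp3, the flippase Abca4 (3.03 ± 0.28) and the retinol dehydrogenase Rdh12 (2.32 ± 0.20). The 5 genes of the list that were not called, Rdh5, Rlbp1, Rgr, Rbp4 and Stra6, are ones best known from pigment epithelium, Müller glia or blood.

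Genes for the long, highly unsaturated lipids of disc membranes split in direction. Of 10 measured, 5 were higher: Elovl4, which extends very long fatty acids (2.75 ± 0.33), Agpat3 (2.06 ± 0.28), Adipor1 (1.40 ± 0.16), Lpgat1 (0.73 ± 0.20) and Lpcat1 (0.72 ± 0.20). The desaturase Fads1 was lower (-0.84 ± 0.16), at 55, 67.3, 56.6 and 51 against 132.1, 94, 96.4 and 91.5. The higher count was 3 without photoreceptor light replicate 2, ganglion light replicate 1 or any of the 4 dark-adapted arrays. Lpgat1 overlapped between the layers by a narrow margin, at 150, 228.1, 190.4 and 219.2 against 78.7, 150.5, 120.6 and 131.4. On Elovl4, ganglion light replicate 2 read 131.5 against 34.1 to 46.6 on the other 3 ganglion layer arrays.

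The connecting cilium, through which outer segment proteins pass, had 13 of 28 measured genes higher and none lower (median 0.66). Members of the BBSome, the coat complex of the cilium, made up 5 of the 13: Bbs9 (2.30 ± 0.18), Bbs4 (1.87 ± 0.21), Bbs5 (1.72 ± 0.26), Bbs7 (1.54 ± 0.25) and Ttc8 (1.31 ± 0.18). Cep290, a protein of the transition zone, read 72.7, 66, 98.1 and 71.7 against 12.3, 27.8, 15.5 and 13.8 (2.21 ± 0.27, adjusted p = 4.2e-05). The ciliary protein Rpgrip1 differed by 2.17 ± 0.29 and the small GTPase Arl3 by 1.70 ± 0.21. The intraflagellar transport genes were mostly not called: Ift57 was (0.83 ± 0.25), whereas Ift20, Ift52, Ift88, Ift140 and Ift172 were not. Pcdh15, a cadherin of the calyceal processes, was called at 2.61 ± 0.26, but its other probe set gave -0.19.

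Of 14 measured photoreceptor transcription factors, 11 were higher in the photoreceptor layer and none was lower (median 1.36). Crx, the homeodomain factor that drives many photoreceptor genes, read 349.9, 476, 486.2 and 442.4 against 64.5, 129.4, 89.7 and 49.3 (2.48 ± 0.26, adjusted p = 7.4e-06). Neurod1 differed by 2.85 ± 0.34 and the orphan receptor Esrrb by 2.99 ± 0.22, the largest of the list. Nrl, the rod determinant, differed by 1.39 ± 0.18, Otx2 by 1.33 ± 0.20, Rorb by 1.62 ± 0.27 and Mef2c by 1.46 ± 0.22. Thrb, which directs cone opsin choice, read 48.2, 118.1, 70.2 and 117.3 against 39.2, 27.8, 33.5 and 42.3 (1.23 ± 0.27), with more spread among photoreceptor arrays than Crx. Rxrg, Sall3 and Casz1 were not called.

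Because CRX and NRL bind short sites near the start of photoreceptor genes, the promoters of the called genes were searched for their core letters. The windows ran from 250 bases before to 50 bases after each RefSeq start (GRCm38.p6), and a start was found by symbol for 539 of the 688 higher, 352 of the 466 lower and 11887 of all 15057 genes. The CRX core TAATCC, on either strand, was in 11.5% of 731 promoters of higher genes, in 3.25% of 523 promoters of lower genes and in 5.98% of all 14907. Among higher genes with a difference of at least 2 it was in 20.5% of 83 promoters. The NRL half-site core TGCTGAC was in 4.10%, 3.63% and 4.13% of the same promoters. TAATTA, a core of other homeodomain factors that shares its first letters with TAATCC, was in 3.01%, 2.29% and 3.13%. In the 100 bases before the start the CRX core was in 5.88% of promoters of higher genes, 0.956% of lower and 1.96% of all. Such a match is a description of the letters, not evidence of a bound site.

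For the largest differences the starts on a chromosome set aside from this step were not used. Of the 15 genes with the largest positive differences, 8 had a start among those used, and 4 of them had the CRX core within these 100 bases. Of the 15 with the largest negative differences, 10 had a start among those used and none had the core there. The stretches of the 4 genes with the core are printed below, with 2 other rod genes of those 8, Pde6b and Cnga1, for comparison. All run 5′ to 3′ on the gene's strand and end at the base before the start, and capitals mark the searched letters or their reverse complement.
Rbp3, chr14:33953903-33954002 (+): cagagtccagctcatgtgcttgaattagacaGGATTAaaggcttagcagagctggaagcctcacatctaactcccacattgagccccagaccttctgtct
Gucy2f, chrX:142196937-142197036 (-): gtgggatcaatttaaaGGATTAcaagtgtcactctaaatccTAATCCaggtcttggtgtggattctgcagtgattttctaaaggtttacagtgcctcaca
Guca1a, chr17:47400607-47400706 (-): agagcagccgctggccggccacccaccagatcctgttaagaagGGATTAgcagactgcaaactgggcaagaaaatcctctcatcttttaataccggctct
Abca4, chr3:122044360-122044459 (+): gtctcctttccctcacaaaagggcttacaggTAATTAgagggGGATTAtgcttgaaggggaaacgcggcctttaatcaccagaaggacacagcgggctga
Pde6b, chr5:108388273-108388372 (+): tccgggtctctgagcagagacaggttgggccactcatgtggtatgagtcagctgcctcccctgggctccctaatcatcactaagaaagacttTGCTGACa
Cnga1, chr5:72642753-72642852 (-): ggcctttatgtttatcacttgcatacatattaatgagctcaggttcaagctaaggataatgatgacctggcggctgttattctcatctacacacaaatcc
Counting the base before the start as -1, the CRX core began at -69 in Rbp3, at -84 and again at -59 in Gucy2f, at -57 in Guca1a and at -58 in Abca4. In Abca4 TAATTA also began at -69. In Pde6b the marked letters are the NRL half-site core, beginning at -8, and in Cnga1 none of the 3 motifs was in this stretch.

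In the synapse, some related genes were called in opposite directions, in families chosen after their values had been seen. The synaptotagmins were not split, with 4 of 17 lower and 0 higher. Of 20 measured genes of the photoreceptor ribbon synapse, 12 were higher and 1, Rims1, was lower (median 0.75). Of 30 general synaptic vesicle and SNARE genes, 4 were higher and 12 lower (median -0.43). Vesicular glutamate transport was split: Slc17a7 read 637.4, 902.4, 692.2 and 839.8 against 141.5, 216, 147 and 61.2 (2.56 ± 0.23, adjusted p = 1.6e-06). Slc17a6, the transporter that ganglion cells use, read 28.8, 39.7, 29.1 and 20.5 against 98.7, 290.9, 84.2 and 224.6 (-2.41 ± 0.36, adjusted p = 0.00028). Neither gene overlapped between the layers.

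Complexins, which clamp vesicles before release, were split in the same way. Cplx4 read 346.4, 393, 495 and 430.8 against 49, 106.9, 40.1 and 33.9 (3.00 ± 0.22), while Cplx1 read 85.6, 136.8, 76 and 124 against 281, 343.4, 259.2 and 438.1 (-1.66 ± 0.21) and Cplx2 differed by -0.96 ± 0.15. Cplx3 was not called (0.36 ± 0.22). For the active zone organisers, Rims2 was higher (1.37 ± 0.24) and Rims1 lower (-1.28 ± 0.25). Rims3 (-0.39 ± 0.16) and Rims4 (-0.23 ± 0.17) were not called. Of the vesicle glycoproteins, Sv2b was higher (1.77 ± 0.21) and Sv2a lower (-1.24 ± 0.31), with Sv2c at -0.59 ± 0.19 and not called. The ribbon synapse syntaxin Stx3 was higher (1.48 ± 0.14), at 425.1, 436.3, 347.8 and 389.5 against 138.2, 155, 142.2 and 136.5, and Stx1a was not called (-0.06 ± 0.16). The lower genes included Syn1 (-1.70 ± 0.29), Syt4 (-1.45 ± 0.28), Syt11 (-1.50 ± 0.34) and Rab3c (-2.16 ± 0.41). The count of lower vesicle genes was 7 without ganglion dark replicate 2 and 10 without ganglion light replicate 2.

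Other ribbon synapse genes were higher without a counterpart in the opposite direction. The subunits Cacna1f and Cacna2d4 of the calcium channel that opens at the photoreceptor terminal differed by 1.10 ± 0.18 and 1.39 ± 0.16. Pikachurin (Egflam) and dystrophin (Dmd), of the protein complex at the terminal membrane, differed by 1.37 ± 0.15 and 1.85 ± 0.27. Ctbp2, whose gene also encodes the ribbon protein RIBEYE, differed by 0.66 ± 0.14. Bsn, Pclo, Syt1, Dag1, Elfn1 and Elfn2 were not called.

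Related genes called in opposite directions were found in 9 of 28 gene families examined, all chosen after their values had been seen. Beside the synaptic families these were the sodium pump beta subunits, the collapsin response mediators, the RGS proteins, and the alpha and gamma subunits of G proteins. The G protein alpha subunits Gnat1 and Gnat2 (1.77 ± 0.13) were higher, whereas Gnao1, the major G protein of neurites, read 59.1, 87, 68.4 and 65.5 against 271.4, 448.6, 243.8 and 348.8 (-2.20 ± 0.31). Gnai1 was also lower (-1.19 ± 0.29). Gngt1 was higher and Gng3 lower (-1.84 ± 0.22). Among regulators of G protein signalling, Rgs9 was higher and Rgs4 read 21.5, 20.8, 17.1 and 16 against 95.7, 166.8, 74.4 and 127.3 (-2.57 ± 0.21, adjusted p = 9.3e-07).

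**Figure D3:**
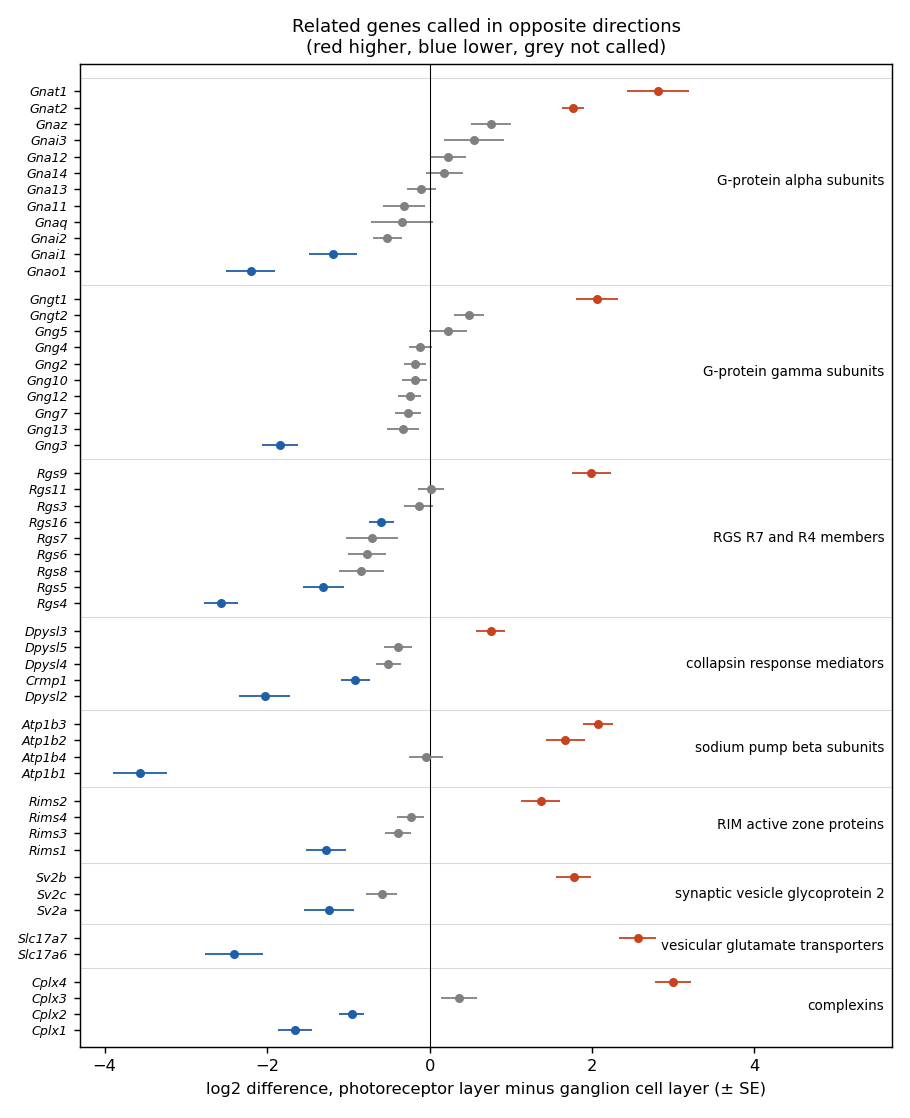
Log2 difference, photoreceptor minus ganglion cell layer, with its standard error, for every measured member of the 9 families that had called genes in both directions (red higher, blue lower, grey not called). The widest split is that of the sodium pump beta subunits, from -3.57 for Atp1b1 to 2.07 for Atp1b3.

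The sodium pump restores the ions that photoreceptors and spiking neurons let in, and its beta subunits were called in opposite directions. Atp1b1 read 36, 31.9, 39 and 58.1 on the photoreceptor and 355.5, 781.9, 308.7 and 600.2 on the ganglion layer arrays (-3.57 ± 0.33, adjusted p = 2.4e-06). Atp1b2 read 694.7, 882.1, 694.1 and 719.5 against 194.5, 340.3, 181 and 247.8 (1.67 ± 0.24, adjusted p = 0.00025). Atp1b3 read 37.7, 42.8, 149.5 and 164 against 25.5, 14.5, 19 and 17.9 (2.07 ± 0.19, adjusted p = 1.8e-06). None of the 3 overlapped between the layers, and both dark-adapted photoreceptor values of Atp1b3 were above both light-adapted ones. Of the small pump regulators, Fxyd1 was lower (-1.07 ± 0.21). Fxyd2 (-0.07 ± 0.20), Fxyd6 (-0.14 ± 0.12) and Fxyd7 (-0.44 ± 0.16) were not called, and Atp1b4, which is outside the list, was not either (-0.05 ± 0.21). The pump's alpha subunits were not analysed here.

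Of 36 measured ganglion cell identity genes, 17 were lower in the photoreceptor layer and 1, the junctional adhesion molecule Jam2, was higher (0.98 ± 0.21); the median was -0.58. Thy1 had the smallest p of all genes, at 5.5, 7.6, 8.9 and 1.3 on the photoreceptor and 497, 617.9, 534.5 and 573.3 on the ganglion layer arrays. With 3 of the 4 photoreceptor values raised to the floor the difference was -6.07 ± 0.15 (adjusted p = 6.2e-14), which understates it. Gamma-synuclein (Sncg) read 167.2, 187.5, 203.3 and 229.1 against 863.8, 1064.3, 628.5 and 1089.3 (-2.19 ± 0.23, adjusted p = 7.4e-06), and Nrn1, which encodes neuritin, read 12.7, 12.3, 13 and 13.3 against 79.5, 75.7, 35.5 and 53.1 (-2.18 ± 0.24). The RNA-binding protein Rbpms, a marker of ganglion cells across types, read 82.4, 72.5, 69.8 and 70.2 against 193.9, 291.8, 137.5 and 239.6 (-1.50 ± 0.19).

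Transcription factors of ganglion cells made up 6 of the 17 lower genes. Pou4f1 read 12.9, 13.3, 13 and 16.8 against 32.6, 48, 27 and 37.4 (-1.35 ± 0.29, adjusted p = 0.006). Ebf1 differed by -1.19 ± 0.26, Ebf3 by -1.05 ± 0.20, Isl1 by -1.01 ± 0.24, Eomes by -0.99 ± 0.23 and Satb1 by -0.68 ± 0.17. Ebf3 was also the 1 called gene of 15 listed for glycinergic and dopaminergic amacrine cells. Its mean log2 level was 6.69 in the IPL and 6.81 in the ganglion cell layer. The nicotinic receptor subunits Chrna6 (-1.63 ± 0.39) and Chrnb3 (-0.68 ± 0.17) and the adhesion genes L1cam (-0.96 ± 0.16) and Nell2 (-0.96 ± 0.20) were also lower. Several genes that mark some ganglion cell types were not called: melanopsin Opn4 (0.08 ± 0.20), Foxp2 (-0.09 ± 0.20), Tbr1 (0.04 ± 0.28), Cartpt (-0.17 ± 0.17), Pou4f3 (-0.45 ± 0.29), Penk (-0.31 ± 0.22) and Pvalb (0.26 ± 0.28). Nor were the regulators of retinal development Atoh7 (-0.32 ± 0.11), Myt1 (0.41 ± 0.15), Klf7 (-0.38 ± 0.27), Dlx1 (-0.26 ± 0.21) and Dlx2 (0.17 ± 0.22). The 5 Iroquois genes Irx2 to Irx6 lay between -0.63 and -0.11, and Rbpms2 was at -0.52 ± 0.17; none of them was called. Between 13 and 17 of the list were lower with each array left out in turn. The calls of Isl1, Eomes, Satb1, Chrna6 and Chrnb3 were each lost with 3 or 4 of the 8 arrays left out singly.

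Of 29 neurofilament and axonal cytoskeleton genes, 16 were lower and 1 was higher, with a median of -0.74. The light chain Nefl read 11.5, 17.2, 13.2 and 14.7 against 166.1, 355.7, 145.3 and 295.9 (-4.0 ± 0.45, adjusted p = 2.0e-05). The medium chain Nefm differed by -2.79 ± 0.33, internexin Ina by -1.62 ± 0.21 and the heavy chain Nefh by -1.19 ± 0.17. For all 4 filament genes both replicate 2 ganglion layer arrays were above their replicate 1 partners. The microtubule destabilisers Stmn1 (-1.21 ± 0.16), Stmn2 (-1.81 ± 0.26) and Stmn3 (-0.58 ± 0.15) were lower, as were tau (Mapt, -1.04 ± 0.17), Tubb3 (-1.46 ± 0.30) and the initial segment anchor Ank3 (-1.30 ± 0.30). Dpysl2, a collapsin response mediator, was lower (-2.03 ± 0.31) and its relative Dpysl3 higher (0.75 ± 0.18). The call of Dpysl3 was lost without photoreceptor light replicate 2, photoreceptor dark replicate 2 or ganglion light replicate 1.

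Motors and channels of long axons pointed the same way in fewer members. Of 19 transport motor genes, 5 were lower and 1 higher. Kif5a read 78.9, 71.7, 74.6 and 72.4 against 237.5, 413.3, 182.9 and 436.3 (-2.0 ± 0.26, adjusted p = 8.1e-05), Kif5c differed by -1.89 ± 0.30 and Kif1a by -1.18 ± 0.22. The lower motor count was 3 without ganglion light replicate 2, ganglion dark replicate 2 or photoreceptor dark replicate 2. Of 24 voltage-gated sodium and fast potassium channel genes, 9 were lower and none higher (median -0.54). The sodium channel Scn1a differed by -1.76 ± 0.41, Kcnip4, a potassium channel partner, by -2.08 ± 0.32 and the fast potassium channel Kcnc1 by -0.97 ± 0.22. That count was 5 without either light-adapted photoreceptor array or ganglion light replicate 2, 4 without photoreceptor dark replicate 2 and 2 without ganglion dark replicate 2. By contrast 8 of 12 channel and transport genes listed for photoreceptors were higher, among them Kcnv2, a modifier of the inner segment potassium current (1.56 ± 0.17), and the calcium-activated chloride channel Ano2 (1.33 ± 0.16).

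Receptors for neuronal input were lower in a minority of cases. Of 25 ionotropic glutamate receptor and scaffold genes, 5 were lower, including the AMPA subunits Gria3 (-1.54 ± 0.41) and Gria4 (-1.77 ± 0.47). Both were lost in 6 of the 8 fits without 1 array, and the list's count was as low as 1 there, without photoreceptor light replicate 1, photoreceptor dark replicate 1 or ganglion dark replicate 2. It was 2 without photoreceptor light replicate 2, photoreceptor dark replicate 2 or ganglion light replicate 2. Of 13 GABA and glycine receptor genes, 2 were lower, Gabbr2 (-0.92 ± 0.15) and Glrb (-1.55 ± 0.41). That count was 1 without either light-adapted photoreceptor array, either dark-adapted one or ganglion light replicate 2. Of 28 guidance and adhesion receptors, 3 were lower: Cntn1 (-1.84 ± 0.39), Robo2 (-1.33 ± 0.31) and Nrcam (-0.81 ± 0.24). That count was 1 without ganglion light replicate 2 or ganglion dark replicate 2. The share lower over all genes was 3.09%. At a count of 1 the guidance and glutamate lists lay near that share, and the GABA and glycine count rested on 1 gene. These counts are therefore not read as a trait of the lists. In photoreceptor layer, ganglion cell layer, INL and IPL the mean log2 level of the glutamate list was 5.56, 6.06, 6.00 and 5.97. It was 5.30, 5.74, 5.79 and 5.50 for the GABA and glycine list and 5.82, 6.18, 6.08 and 6.02 for the guidance list. The higher levels were thus not particular to the ganglion cell layer.

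Calcium-binding proteins were called in both directions. Recoverin and Cabp4 (0.73 ± 0.19) were the 2 higher genes of 18, and calretinin (Calb2) was among the 6 lower. The higher count was 1 in 5 of the 8 fits without 1 array. Calb2 read 50.6, 32.5, 29.4 and 34.1 against 394.4, 637.9, 235.5 and 603.9 (-3.60 ± 0.38, adjusted p = 8.9e-06). Visinin-like Vsnl1, of the same family as recoverin, read 51.8, 82.9, 60 and 43.2 against 161.8, 644.6, 178.9 and 482.3 (-2.41 ± 0.47), and its ganglion layer values spanned from 161.8 to 644.6. Hippocalcin Hpca (-0.91 ± 0.17) and Ncs1 (-1.19 ± 0.30) were also lower. Calb1, Pvalb, Cabp2 and Cabp5 were not called.

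Displaced amacrine cells share the ganglion cell layer, and 4 of 17 genes listed for them were lower in the photoreceptor layer. Pax6, which amacrine and ganglion cells both express, read 54.2, 43, 62.5 and 66.9 against 298.9, 424, 203.9 and 332.6 (-2.45 ± 0.27, adjusted p = 1.5e-05). The other 3 were Calb2, Isl1 and Elavl2 (-1.07 ± 0.21), all of which ganglion cells also express. Chat and Slc18a3, which define cholinergic starburst cells, were not called, nor were Gad1, Gad2 and Slc32a1 of GABA synthesis and storage. Their part in the differences above was not tested.

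Marker lists of the remaining cell types also held called genes, whose part in the neuronal differences was not tested. Of 18 Müller glia genes, 7 were lower and 1, Car2, higher. The lower ones included vimentin (Vim, -1.53 ± 0.27), glutamine synthetase (Glul, -1.33 ± 0.30) and clusterin (Clu, -0.84 ± 0.22). Rlbp1, Slc1a3 and Aqp4 were not called. In photoreceptor layer, ganglion cell layer, INL and IPL the mean log2 level of the Müller glia list was 5.89, 6.33, 6.72 and 6.60. The higher level was thus not particular to the ganglion cell layer. The lower count was 3 without photoreceptor light replicate 2, photoreceptor dark replicate 1 or ganglion dark replicate 2 and 4 without ganglion light replicate 2, and Car2 was lost in 6 of the 8 fits without 1 array. Of 22 endothelial and pericyte genes, 4 were lower, including Flt1 (-1.50 ± 0.21). Sparcl1, which glia also express, had the third most negative difference of all genes, at 46.8, 53.7, 25.2 and 36.6 against 419, 588.7, 392 and 637.7 (-3.67 ± 0.26). Cldn5, Pecam1 and Cdh5 were not called. Vitronectin (Vtn), from the same list, was higher at 736.1, 819.2, 795.8 and 724.9 against 125.4, 198.6, 156.6 and 115 (2.40 ± 0.17). None of 9 microglia, 11 pigment epithelium or 11 crystallin genes was called in limma, and 0 of each were at an unadjusted p under 0.05. Among 11 astrocyte genes only the glutamate transporter Slc1a2 was called, and it was higher (1.38 ± 0.23). At an unadjusted p under 0.05 in limma were 4 of the 11. Of 18 bipolar cell genes, 3 were higher and 2 lower, and of 10 horizontal cell genes, 1 and 3. The lower horizontal cell count was 0 or 1 in 6 of the 8 fits without 1 array, and the lower bipolar count was 1 in 4 of them.

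Energy metabolism differed in single steps. Of 24 glycolysis and lactate genes, 5 were higher and 3 lower. Hexokinase 2 (Hk2), the first step, read 220.3, 292.8, 302.2 and 286.7 against 43.6, 40.9, 58.9 and 25.2 (2.76 ± 0.23, adjusted p = 9.3e-07), while Hk1 was not called (0.17 ± 0.17). Pfkfb2, which makes an activator of phosphofructokinase, read 323.6, 476.4, 400.7 and 574.2 against 52.2, 169.1, 90.3 and 57.9 (2.40 ± 0.32). The lactate transporter Slc16a1 (1.81 ± 0.33), its partner basigin (Bsg, 0.61 ± 0.17) and lactate dehydrogenase Ldha (1.09 ± 0.18) were the other higher genes, with Ldhb at -0.48 ± 0.15 and not called. The neuronal enolase Eno2 (-1.16 ± 0.19), the phosphofructokinase Pfkm (-0.77 ± 0.16) and the glucose transporter Slc2a3 (-0.76 ± 0.21) were lower. Slc2a3 was lost with any single array left out. Of 27 oxidative phosphorylation genes 2 were higher and none lower (median 0.25), against 4.57% higher over all genes. That count moved between 0 and 4 as arrays were left out: 0 without photoreceptor light replicate 2, photoreceptor dark replicate 2 or either replicate 1 of the ganglion layer, 1 without photoreceptor light replicate 1 or dark replicate 1, and 4 without ganglion light replicate 2.

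RNA-binding proteins of neurons were split, with 5 of 30 higher and 5 lower. Musashi 1 (Msi1), which promotes photoreceptor-specific splicing, read 329, 393.1, 367.5 and 381.7 against 142.1, 169.6, 154.4 and 156 (1.24 ± 0.18, adjusted p = 0.0002). Msi2 (0.70 ± 0.20), Mbnl1 (1.02 ± 0.20), Pcbp2 (1.54 ± 0.29) and Pcbp4 (0.88 ± 0.14) were also higher. All 3 Rbfox splicing factors were lower, with Rbfox1 at 57, 64.2, 69 and 60.6 against 149.4, 203.2, 112.5 and 213.4 (-1.39 ± 0.21), Rbfox2 at -0.80 ± 0.18 and Rbfox3, known as the antigen NeuN, at -0.55 ± 0.14. Celf4 (-1.13 ± 0.18) and Elavl2 were lower as well. The lower count was 3 without ganglion dark replicate 2.

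Several of the largest differences lay outside these systems. The imprinted noncoding RNA Meg3 read 108.6, 125.3, 98.7 and 148.9 against 748.7, 1073.4, 695.1 and 1061.4 (-2.88 ± 0.28, adjusted p = 3.3e-06), whereas its neighbour Rian was not called. App, the amyloid precursor, differed by -2.59 ± 0.31, the cyclin-dependent kinase Cdk14 by -3.03 ± 0.31 and the stress kinase Mapk10 by -2.42 ± 0.30. In the other direction the apoptosis inhibitor Xiap read 148.8, 167.6, 236.4 and 197.5 against 10.3, 34.8, 20 and 10.6 (3.48 ± 0.38, adjusted p = 1.2e-05). The palmitoyltransferase Zdhhc2 differed by 3.07 ± 0.26 and the deadenylase subunit Cnot6 by 3.03 ± 0.36. The histone gene H2bc4 differed by 4.47 ± 0.40, but histone genes have near-identical copies and the value is uncertain as to which copy it reads. Rod nuclei pack heterochromatin at their centre, and 5 of 14 chromatin genes listed for them were higher, among them Suv39h2 (1.49 ± 0.26) and Ctcf (1.09 ± 0.23). The count was 3 without photoreceptor dark replicate 2.

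**Figure D4:**
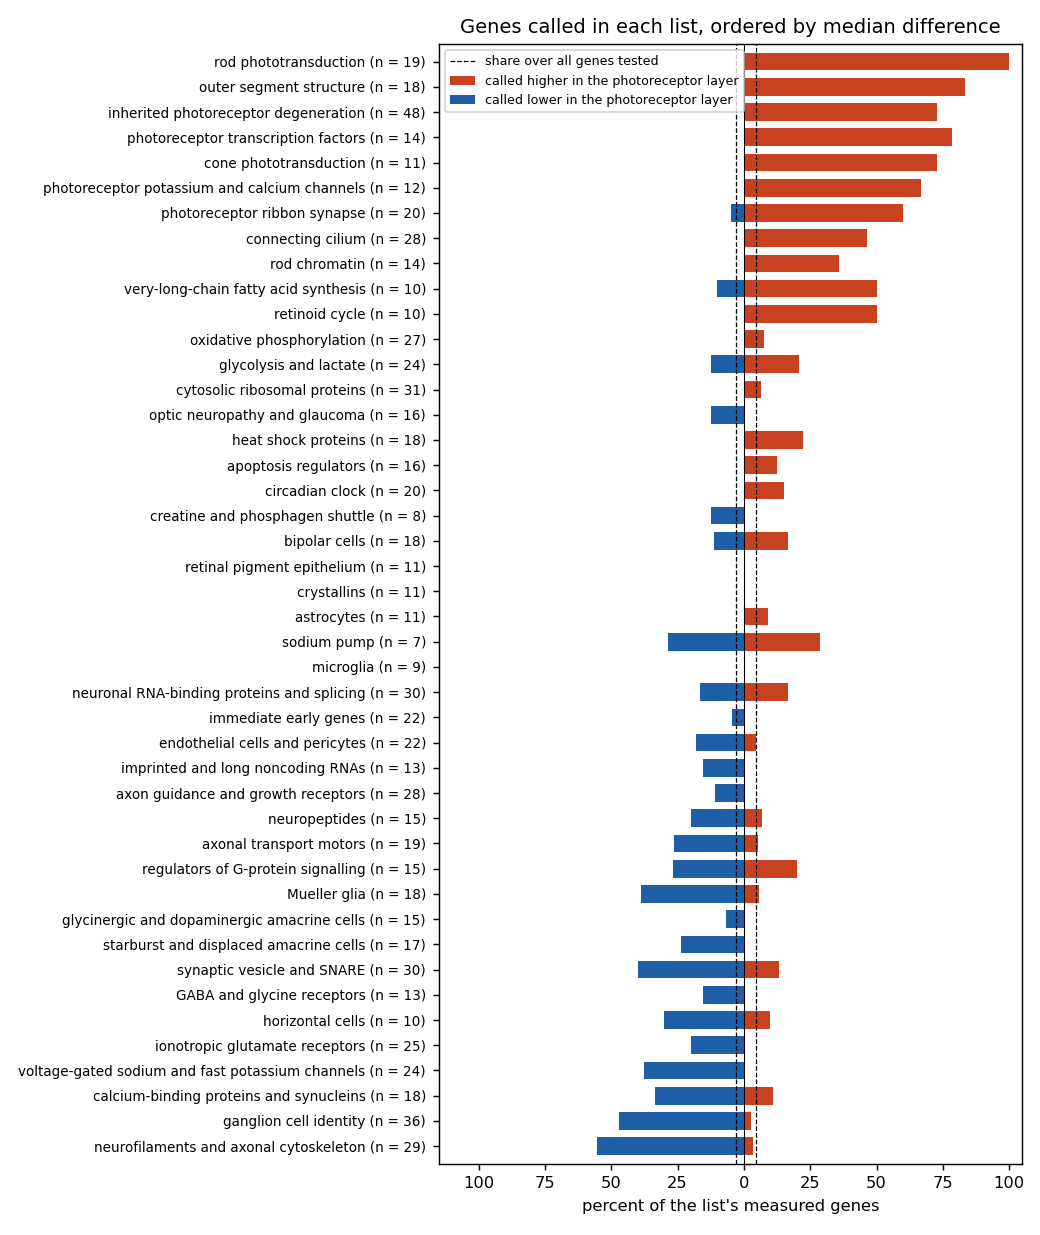
Percent of the measured genes of 44 lists that were called higher (red, to the right) or lower (blue, to the left) in the photoreceptor layer, ordered by median difference; dashed lines give the shares over all 15057 genes. All 19 rod genes were higher, and neurofilament and ganglion cell identity genes stand at the bottom with 16 of 29 and 17 of 36 lower.

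Of 48 measured genes mutated in inherited photoreceptor degeneration, 35 were higher in the photoreceptor layer and none lower (median 1.77). Many of these are rod and outer segment genes already counted above. The 13 that were not called included the pre-mRNA splicing factors Prpf3 (0.30 ± 0.20), Prpf4 (0.16 ± 0.17), Prpf6 (-0.17 ± 0.15) and Prpf31 (0.43 ± 0.23), and the general enzymes Idh3b (-0.12 ± 0.22) and Dhdds (0.06 ± 0.15). The splicing factors Prpf8 (0.96 ± 0.17) and Snrnp200 (0.75 ± 0.22) were higher. Of 16 measured genes linked to optic neuropathy and glaucoma, only Nefl and Nmnat2, which keeps axons alive (-0.63 ± 0.14), were lower in the photoreceptor layer. Opa1, Opa3, Wfs1 and Mfn2 were not called, and the median of the list was 0.06.

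The layer difference was measured separately in light and in dark, from means over arrays that the 2 comparisons do not share and with 1 error estimate from all 20 arrays. In light 350 genes (2.32%) were called, 210 higher and 140 lower, and in dark 522 (3.47%), 393 higher and 129 lower (0.857%). Of the 210 genes higher in light, 208 had the same sign in dark, with a median of 1.57 in light and 1.66 in dark. All 140 genes lower in light had the same sign in dark (medians -1.39 and -1.11). Of the 393 higher in dark, 386 had the same sign in light, with a median of 1.52 in dark and 1.10 in light. Of the 129 lower in dark, 126 did so (-1.28 and -1.18). Over all genes 48.9% were positive in light and 44.0% in dark. In the dark-adapted comparison 17 of the 19 rod genes, 7 of the 36 ganglion cell identity genes and 10 of the 29 cytoskeleton genes passed.

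A test of the change in the layer difference from light to dark called 1 of 15057 genes, Opn1sw (0.00664%), with 417 at an unadjusted p under 0.05 in limma. Opn1sw changed by -6.21 ± 0.36 (adjusted p = 5.7e-08), with the floor limiting the size of the change. The next smallest p-values did not pass. Nlgn2, a postsynaptic adhesion molecule, changed by 1.79 ± 0.31 (adjusted p = 0.2), at 186.4, 140.6, 482 and 547.6 on the photoreceptor arrays. Atp1b3 changed by 2.02 ± 0.37 (adjusted p = 0.23) and the sulfotransferase Chst10 by 1.75 ± 0.35 (adjusted p = 0.47). In these 3 both dark-adapted photoreceptor values were above both light-adapted ones, and the ganglion layer values overlapped between the states. Chst10 had a layer difference of -0.12 in light and 0.76 ± 0.18 over both states, and its call was lost without ganglion light replicate 2.

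**Figure D5:**
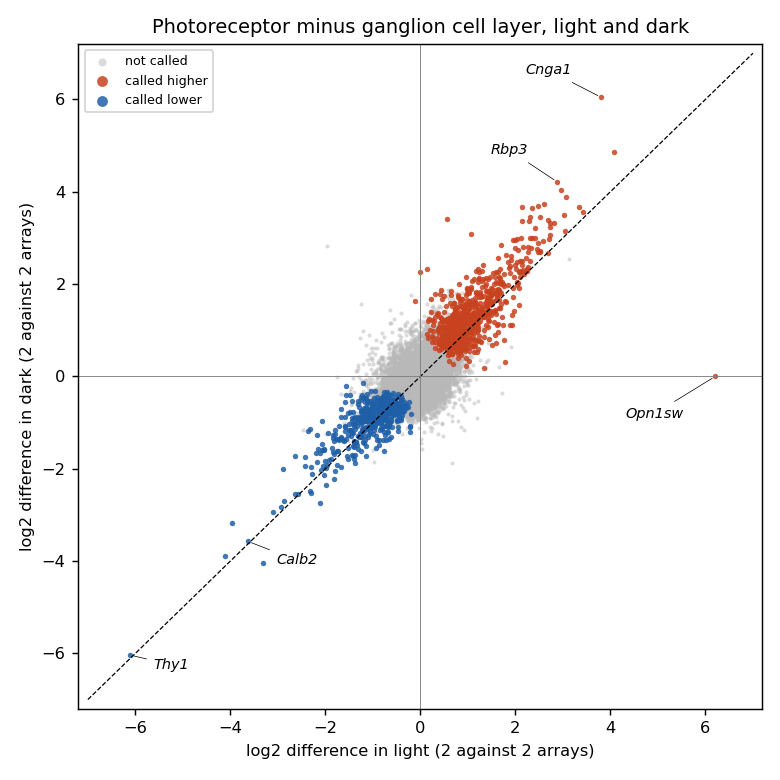
Layer difference of each gene in light (x axis) and in dark (y axis), 2 arrays against 2 in each, with the line of equal difference dashed. Called genes lie along the line in the upper right and lower left, and Opn1sw lies apart at 6.21 in light and 0.00 in dark, where both layers were at the floor.

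The layers between the 2 ends gave each difference its shape. For 644 of the 688 genes higher in the photoreceptor layer the INL mean was nearer to the ganglion cell layer than to the photoreceptor layer, and for 646 the IPL mean was. The median INL position was 10.2% of the way from the ganglion to the photoreceptor level, and that of the IPL 1.3%. The whole retina lay at 111.3%, and was above both layers in 424 of the 688. For the connecting cilium genes its mean log2 level was 7.09. The photoreceptor layer, ganglion cell layer, INL and IPL were at 6.70, 5.81, 5.87 and 5.69. Why the whole retina exceeded the layers was not tested, which limits its use as a point of reference. Genes lower in the photoreceptor layer behaved differently: the INL stood 48.6% and the IPL 35.0% of the way from the ganglion to the photoreceptor level. The INL lay between the 2 layers for 413 of these 466 genes. Levels stepped in order through all 4 layers for 204 of the 466 and for 129 of the 688, against 4.72% and 3.13% of all genes in those directions. The called genes were chosen by a difference between the 2 outer layers, which by itself favours ordered steps among them. That contrast is therefore not read as a trait of the called genes. The other positions were not counted over all genes, and are not read as particular to the called genes either. No test was made of these positions, which share the arrays that chose the genes.

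Single genes show the span of these positions. Thy1 had mean log2 levels of 3.04, 3.00, 3.76 and 9.11 in photoreceptor, INL, IPL and ganglion cell layers. Pax6 had 5.80, 7.82, 7.70 and 8.25. Gnao1 had 6.11, 8.04, 7.78 and 8.32 and Meg3 6.89, 8.61, 8.40 and 9.78. Atp1b1 had 5.33, 6.88, 6.90 and 8.90, with both inner layers in between, and Cnga1 had 9.43, 4.99, 5.37 and 4.51. The inner layers thus lay nearer to the ganglion cell layer for Pax6, Gnao1 and Meg3 and nearer to the photoreceptor layer for Thy1.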

How the data were processed

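Total RNA from laser-captured mouse retina was labelled in 2 cycles and hybridised to Affymetrix arrays, per the labels' protocols. The deposited values are GCRMA intensities, per the submitters' processing notes, on a linear scale; GCRMA corrects the background and normalises between arrays, so weak values carry a modelled background, and the linear scale was inferred from the values. The number of arrays limits the precision.

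Values were floored at 8 and taken to log2. Probe sets above a log2 of 5 on at least 2 of 20 arrays and with 1 gene symbol were used, with the highest-mean probe set per gene. limma 3.58.1 (R 4.3.3) fitted 10 group means with an intensity trend, and p-values were adjusted over 15057 genes. Named genes were the 15 largest differences in each direction among called genes without overlap, up to 4 called members of each list and direction by smallest p, the 5 smallest p of the dark against light contrast, and all members of the sodium pump, ganglion cell identity, rod and cone lists; others were chosen after their values were seen. The gene lists and members were chosen with earlier results of these data known, and the families after their values were seen. The fit was tested on simulated data.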

Additional observations from a re-analysis of the deposited data

Results flagged for a closer look

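Of 148 groups of 4 arrays examined for an array far from the other 3 in log2 level, 12 passed Dixon's critical value for 4 samples, and chance gives about 1 in 20. In 5 of the 12 the array that stood apart was ganglion light replicate 2. It was the highest ganglion layer array for Rbp3 (8.52 against 6.00 to 6.15, ratio 0.943), for recoverin (6.34 against 5.06 to 5.20, ratio 0.891), for the very-long-chain fatty acid genes (6.94 against 6.34 to 6.39, ratio 0.912) and for the glycinergic and dopaminergic amacrine genes (6.15 against 6.05 to 6.06, ratio 0.899), and the lowest for the microglia genes (5.71 against 5.92 to 5.94, ratio 0.925).

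Photoreceptor light replicate 1 was the highest of its layer for the neurofilament genes (6.36 against 6.30, ratio 0.979) and the starburst amacrine genes (5.67 against 5.47 to 5.50, ratio 0.885). Photoreceptor light replicate 2 was the highest for the synaptic vesicle genes (6.66 against 6.54 to 6.56, ratio 0.834) and for Pde6b (9.80 against 9.65 to 9.66, ratio 0.927). Photoreceptor dark replicate 1 was the lowest for the Müller glia genes (5.81 against 5.91 to 5.92, ratio 0.925) and the highest for Thy1, where the other 3 were at the floor (3.15 against 3.00, ratio 1.000). That ratio was fixed by the floor and shows nothing about the array, although it is counted among the 12. Photoreceptor dark replicate 2 was the lowest for Guca1a (7.67 against 8.44 to 8.52, ratio 0.912).

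The layer difference of Opn1sw changed by -6.21 from light to dark, as tested by the interaction term in limma (adjusted p = 5.7e-08). Both light-adapted photoreceptor arrays were high and both dark-adapted ones were at the floor, as were all 4 ganglion layer arrays, so the size of the change is a lower estimate.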

How the results depend on the processing

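The count of called genes, 1154 in the fit as reported, stayed within 1.5 times of that under quantile normalisation (1205), median centring (1137), a floor of 16 (1162), an added constant of 16 in place of the floor (1137), no filter (957), a filter at a log2 of 7 (869), the mean of the probe sets of a gene (1178), no intensity trend (1114), array weights (1475), the 8 arrays alone (1185) and without the inner plexiform layer arrays (1311). It was 86 with a minimum log2 difference of 1, 350 in the light and 522 in the dark comparison of the same fit, and 715 to 1121 with each array left out. Without ganglion light replicate 2 and ganglion dark replicate 1 together, an alternative chosen after seeing the data, it was 879. The share of called genes that were higher was 59.6%, against 75.3% in the dark comparison.

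With the replicate number as a block 1630 genes were called, which include all 1154. The labels do not say whether the numbers pair the arrays, and the fit as reported did not pair them. The correlations of same-numbered deviations were 0.058 to 0.299 over the 6 pairs of the 4 groups compared. Over the 45 pairs of all 10 groups they were 0.006 to 0.479, with 0 below 0. Whether arrays of the same number share a sample or a batch was not tested.

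The interaction called 2 genes with the added constant of 16 and 2 without the inner plexiform layer arrays, 0 with the filter at a log2 of 7, and 1 to 2 with 1 array left out, 2 being the count without ganglion light replicate 1 or without ganglion light replicate 2. Of 181 named called genes, 130 kept their sign and call with each array left out and 154 under 12 processing and model alternatives; of the 30 largest, 30 did in both. Chst10 had the opposite sign in the light comparison but was not called there (-0.12 ± 0.25, adjusted p = 0.96 in limma). With 2 arrays per layer and state, small differences within a state could not be called.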

Other observations

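Other gene lists held few called genes, and these lists were chosen with earlier results known. Over all genes 4.57% were higher and 3.09% lower. The shares of ribosomal genes that were higher (6.5%) and of immediate early genes that were lower (4.5%) lay near these. Of 18 heat shock genes, 4 were higher in the photoreceptor layer and none was lower: Hsp90b1 (1.34), Hspb6 (1.24), Hsp90aa1 (1.23) and Hspa1a (0.81). The count was 1 without photoreceptor dark replicate 1 or ganglion dark replicate 1, and 2 without photoreceptor light replicate 2, photoreceptor dark replicate 2 or ganglion light replicate 1. Of 31 cytosolic ribosomal protein genes, Rpl8 (1.17) and Rpl4 (0.89) were higher, and of 20 clock genes Rorb, Rora and Arntl (0.57) were. The ribosomal count was 1 without photoreceptor light replicate 1, ganglion light replicate 1 or ganglion dark replicate 1. The clock count was 1 without photoreceptor light replicate 2, photoreceptor dark replicate 2, ganglion light replicate 1 or ganglion dark replicate 1. Of 15 neuropeptide and granin genes, Nucb2 was higher (1.91), and Tac2 (-1.59), Scg2 (-1.54) and Chga (-0.70) were lower. Chga was lost in 7 of the 8 fits without 1 array, photoreceptor dark replicate 1 being the exception. Of 22 immediate early genes only Dusp1 was called (-0.65), and it was lost without photoreceptor light replicate 1, photoreceptor dark replicate 2, ganglion light replicate 2 or either dark-adapted ganglion layer array.

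Of 9260 probe sets past the filter that do not pair with exactly 1 symbol, 46 were higher and 34 lower in the photoreceptor layer, 0.86% in all.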
